A study of Mus musculus with 30 samples.

Results

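The comparison of infarcted with sham hearts at day 2 took in the 10 libraries that the labels give to this day, of 30 in the series: 5 from hearts after thoracotomy and ligation of a coronary artery (MI) and 5 from hearts after the same operation without the ligation (sham). All came from wild-type C57BL/6J mice, and the labels state neither the age of the animals nor the part of the heart taken. The 5 libraries of a group are labelled as samples of their own, without a statement of whether each is 1 animal, so p-values here measure the spread among those libraries only, which may be technical. RNA was sequenced as paired reads of 150 bases, and the values are counts per gene, given here as CPM, which scale each library to the same total. Totals ran from 9426599 to 14070017 counts, with 19790 to 20121 genes detected in MI and 19549 to 19840 in sham libraries. Where a gene has 0 counts, counting error alone allows a level of up to 3 counts, which is 0.213 to 0.318 CPM depending on the library.

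Of 43629 genes, 14524 had enough counts to be tested with edgeR's quasi-likelihood test on these 10 libraries alone. A gene low in 1 group was tested only when high enough in the other, which can raise the called share of lists with low members. A gene is called higher or lower in MI where its p-value, adjusted by Benjamini-Hochberg over all genes tested, is under 0.05. This called 24.1% of the genes tested higher and 22.2% lower, 46.3% in either direction, and the median log2 fold change of MI over sham was -0.01. Changes of at least 2-fold were called higher in 6.16% and lower in 2.41% of the genes tested. Higher genes made up 52.0% of all calls, and 65.1% when libraries were scaled by their totals alone. Counts in the lists below are read against these shares, and where leaving out 1 library changed the call of a gene named, those libraries are given beside it. Fold changes come from the fit, which also scales libraries by TMM factors, and so differ somewhat from the ratio of the CPM printed beside them. The MI and sham CPM did not overlap in 30.6% of the genes tested, 20.3% with MI above and 10.3% with MI below. The 58 lists described here hold 1196 genes, 1116 of them tested, and some genes stand in more than 1 list.

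Tying off a coronary artery starves the muscle behind it of oxygen, and that muscle dies within hours. Contents of the dying cells are read by innate immune receptors as danger signals, clotting and the removal of clots begin, white cells enter through the vessel wall, and surviving muscle cells, fibroblasts and vessel cells change what they transcribe. The second day falls in the inflammatory phase, before most of the scar is laid down.

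Several sets of cell type markers differed between MI and sham libraries. The 6 markers of heart muscle cells (4 lower) summed to 32643 to 37216 CPM in MI, against 44403 to 50382 CPM in sham libraries. The 5 neutrophil markers, all higher, summed to 175 to 643 CPM in MI, against 8.62 to 16.5 CPM in sham libraries, the 5 of macrophages and monocytes (4 higher) to 182 to 305 CPM in MI, against 88.3 to 175 CPM in sham libraries, the 3 of platelets, all higher, to 98.6 to 152 CPM in MI, against 24.7 to 41.4 CPM in sham libraries and the 3 erythroid ones (2 higher) to 230.3 to 837 CPM in MI, against 94.4 to 221 CPM in sham libraries. Of 4 markers of smooth muscle and pericytes 3 were lower, of 3 mesothelial and 3 Schwann cell markers 2 each, of 5 fibroblast markers 2 and of 4 endothelial markers 1, a share near that of all genes. Of 4 atrial markers 1 was higher and 1 lower. Of the 3 mast cell and 3 tested adipocyte markers 0 were called, and 0 also at an unadjusted p under 0.05 in edgeR, in DESeq2 and in limma voom. B cell, T and NK cell, lung and fast skeletal muscle markers were too low to be tested, at no more than 6.69 CPM in sum in any library. No marker gene was at 0 in every library. In RNA from whole tissue, fewer cells of a type and less transcript per cell cannot be told apart, and the part that these shifts take in the results below was not tested except where a value is given.

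**Figure D1:**
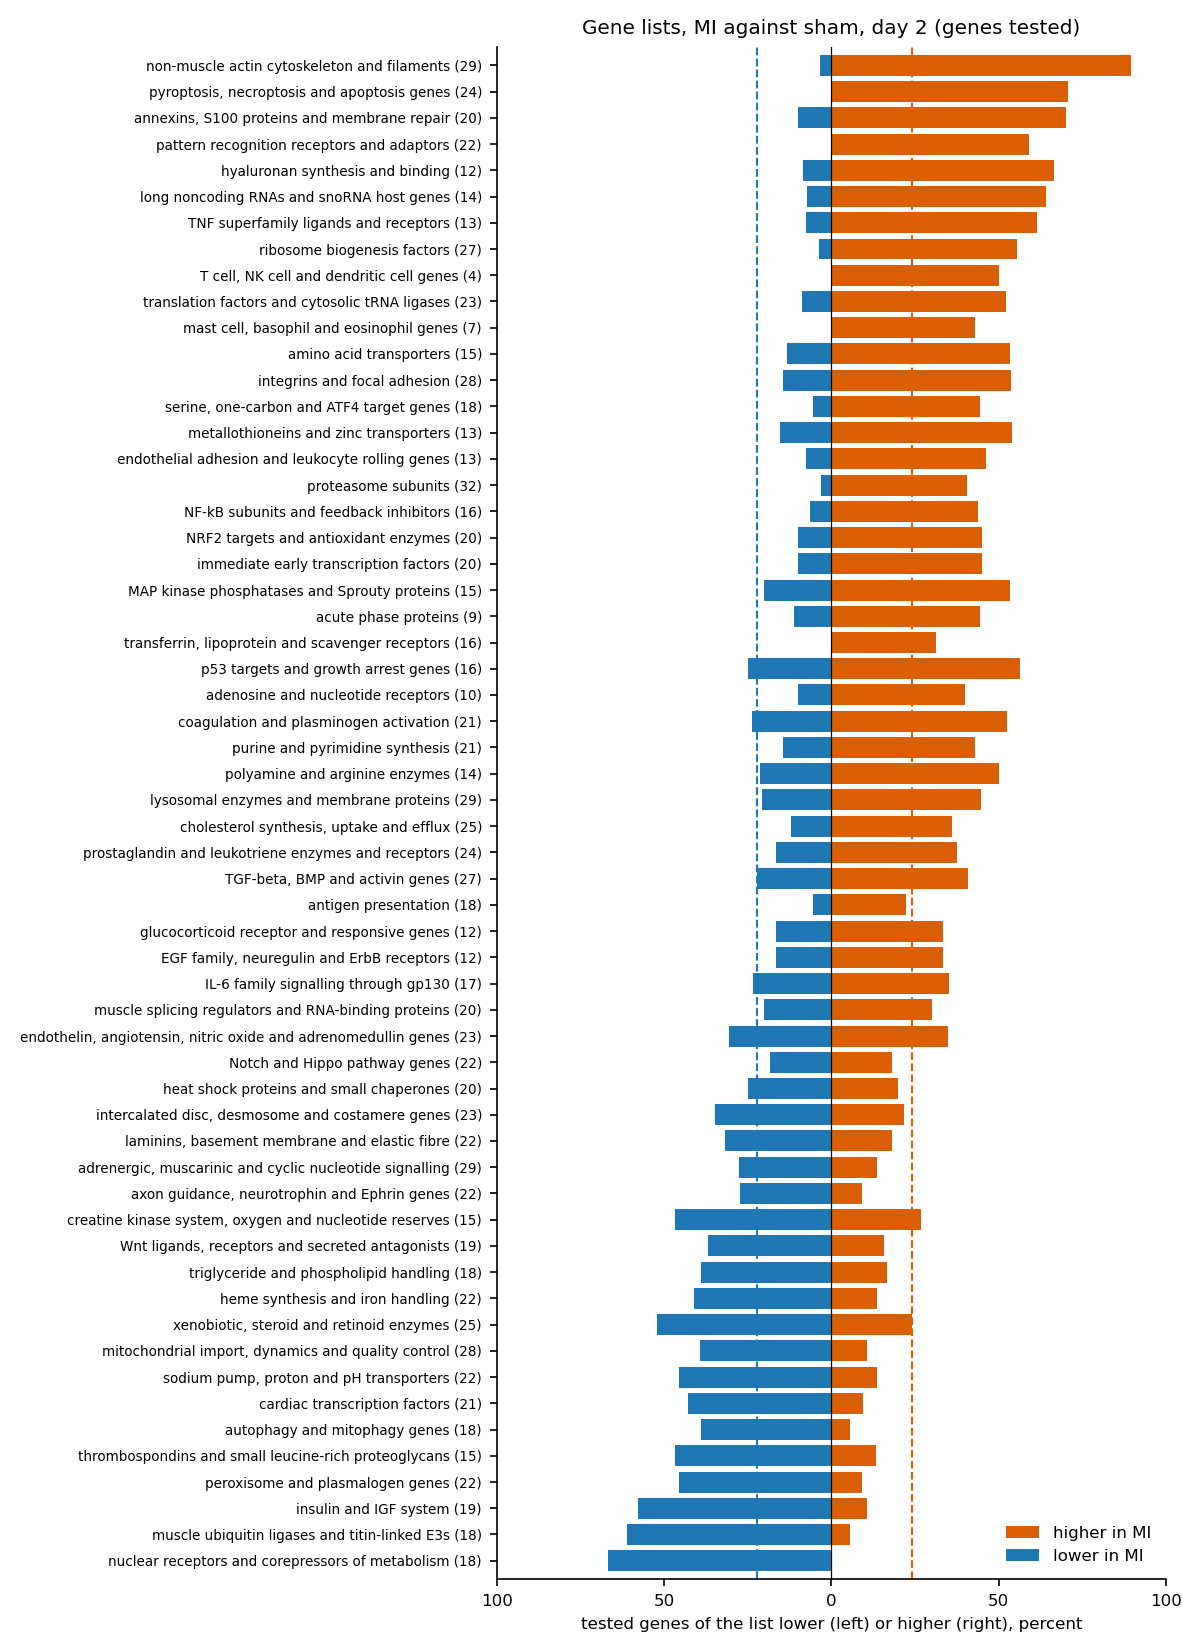
Share of the tested genes of each of the 58 lists that were higher (right, orange) or lower (left, blue) in MI than in sham libraries at day 2, in percent, ordered by the difference of both shares; the dashed lines mark the shares over all 14524 genes tested, 24.1% higher and 22.2% lower. The non-muscle actin cytoskeleton stands at the top with 26 of 29 genes higher, and nuclear receptors and cofactors of metabolism at the bottom with 12 of 18 lower and 0 higher.

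Many of the innate receptors that read microbial and cell debris were higher in MI libraries. Of the 22 pattern recognition receptors and adaptors tested, 13 were higher and 0 lower, and the median log2 fold change was 0.63. At an unadjusted p under 0.05 edgeR gave 2 lower, and with adjusted p DESeq2 gave 0 and limma voom 1. The C-type lectin Clec4e, which binds a protein released by dead cells, held 18.8, 11.6, 12.3, 8.88 and 12.9 CPM in MI libraries, against 0.533, 1.45, 1.54, 0.772 and 1.59 CPM in sham libraries. Every MI library lay above every sham library for Clec4e, 10.1-fold higher with a log2 fold change of 3.34 (SE 0.25, adjusted p = 2.91e-07 by edgeR). Its neighbour and partner Clec4d was 7.36-fold higher (16.1 to 31.2 CPM in MI, against 1.93 to 4.53 CPM in sham libraries) and Tlr13, a mouse receptor for bacterial ribosomal RNA, 4.46-fold (24.1 to 43.01 CPM in MI, against 4.53 to 9.36 CPM in sham libraries). The lipopolysaccharide co-receptor Cd14 rose 2.38-fold, its signalling receptor Tlr4 1.84-fold and Tlr2, a receptor for lipoproteins, 1.696-fold. Neutrophil markers moved with this list and stood at 175 to 643 CPM in MI, against 8.62 to 16.5 CPM in sham libraries.

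Of 16 NF-kB subunits and feedback inhibitors 7 were higher and 1 lower (median 0.22). The nuclear cofactor Nfkbiz rose 2.298-fold (10.2 to 14.7 CPM in MI, against 4.33 to 6.17 CPM in sham libraries), whereas the inhibitors Nfkbia and Tnfaip3 had log2 fold changes of 0.20 ± 0.15 SE and 0.00 ± 0.14 SE (adjusted p = 0.304 and 0.985 by edgeR). Both inhibitors are themselves targets of NF-kB. Of 18 TNF superfamily ligands and receptors 13 had enough counts to be tested, 8 of them higher and 1 lower (median 0.78). Members low in sham libraries, such as Tnfsf14 and Tnfrsf11b, could be tested only when high in MI, which can raise the higher share and the median. The receptor of the ligand TWEAK, Tnfrsf12a (ENSMUSG00000023905, chromosome 17, 23675445 to 23677468 on GRCm38), held 274, 202, 222, 305 and 355 CPM in MI libraries, against 133, 50.1, 66.4, 66.5 and 60.6 CPM in sham libraries. The 5 MI values lay above the 5 sham values, and sham replicate 1 was well above the other sham libraries. Tnfrsf12a rose 3.397-fold, with a log2 fold change of 1.76 (SE 0.26, adjusted p = 0.000221 by edgeR). The decoy receptor Tnfrsf23 rose 3.08-fold, the second TNF receptor Tnfrsf1b 1.85-fold, and osteoprotegerin, Tnfrsf11b, 3.63-fold from a low level (1.21 to 2.05 CPM in MI, against 0.152 to 0.711 CPM in sham libraries). The ligand Tnfsf14, known as LIGHT, held 1.79 to 4.53 CPM in MI, against 0 to 0.622 CPM in sham libraries and was higher with a log2 fold change of 2.84.

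Several ligands of the interleukin 6 family that signal through gp130 rose, while the shared receptor did not pass the test. Of 17 genes tested 6 were higher and 4 lower (median 0.15). Oncostatin M (Osm) held 1.33 to 2.42 CPM in MI, against 0.0772 to 0.617 CPM in sham libraries, cardiotrophin-like cytokine factor 1 (Clcf1) 7.33 to 10.9 CPM in MI, against 1.67 to 2.99 CPM in sham libraries and leukaemia inhibitory factor (Lif) 2.35 to 4.35 CPM in MI, against 0.342 to 1.42 CPM in sham libraries. These were log2 fold changes of 2.14, 1.96 and 1.63, without overlap of the groups. Cardiotrophin 1 (Ctf1), named after heart muscle, averaged 4.802 ± 1.002 CPM in MI, against 8.404 ± 0.690 CPM in sham libraries (SD, n = 5), 1.84-fold lower. The oncostatin receptor Osmr rose 1.61-fold and the receptor of leukaemia inhibitory factor, Lifr, was 1.48-fold lower. Il6st, which encodes gp130 itself, averaged 322 ± 12.01 CPM in MI, against 330.3 ± 32.8 CPM in sham libraries (SD, n = 5; log2 fold change -0.12, edgeR adjusted p = 0.205), and the downstream factor Stat3 had a log2 fold change of 0.17 ± 0.12 SE (adjusted p = 0.233 by edgeR). The feedback inhibitor Socs3, a target of this pathway, rose 2.26-fold and averaged 41.9 ± 5.405 CPM in MI, against 17.3 ± 4.37 CPM in sham libraries (SD, n = 5).

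Acute phase proteins, secreted mainly by liver and in part by injured tissue, had 4 of 9 tested genes higher and 1 lower (median 0.60). The list holds 15 genes, and a member low in sham libraries could be tested only when high in MI. Lipocalin 2 (Lcn2), which binds bacterial iron carriers and is stored in neutrophils, held 169, 96.7, 168, 175 and 167 CPM in MI libraries, against 37.2, 93.04, 63.8, 79.3 and 62.8 CPM in sham libraries. MI replicate 2 lay close to the highest sham library and the other 4 MI libraries well above it. Lcn2 rose 2.17-fold (adjusted p = 0.00203 by edgeR). Haptoglobin (Hp) rose 2.34-fold and Saa3, a serum amyloid made outside the liver, 2.33-fold (adjusted p = 0.0264 by edgeR), both with overlap of the groups. The protease inhibitor Serpina3n averaged 152 ± 21.04 CPM in MI, against 149.6 ± 70.2 CPM in sham libraries (SD, n = 5; log2 fold change -0.06, edgeR adjusted p = 0.851), and the copper carrier ceruloplasmin (Cp) fell 1.71-fold. The call of Saa3 was lost without MI replicates 4 or 5 or sham replicates 1, 2 or 5 (highest edgeR adjusted p = 0.0667).

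Genes that carry out cell death rose across several death programmes. Of 24 genes of pyroptosis, necroptosis and apoptosis 17 were higher and 0 lower, and the median log2 fold change was 0.62. The lower count was also 0 at an unadjusted p under 0.05 in edgeR, in DESeq2 and in limma voom. Nlrp3, the sensor that assembles the inflammasome, held 8.02, 5.301, 5.73, 5.54 and 4.47 CPM in MI libraries, against 1.07, 1.67, 0.769, 1.004 and 1.41 CPM in sham libraries. The groups did not overlap and Nlrp3 rose 4.53-fold (adjusted p = 2.51e-06 by edgeR). The inflammasome adaptor Pycard had a log2 fold change of -0.35 ± 0.18 SE (adjusted p = 0.126 by edgeR), and the pore-forming gasdermin Gsdmd rose 1.35-fold (adjusted p = 0.0483 by edgeR) with overlap. In necroptosis, the kinase Ripk3 rose 2.12-fold and its substrate Mlkl, which breaks the membrane, 2.39-fold. In apoptosis, the mitochondrial pore proteins Bax and Bak1 rose 1.69-fold and 1.83-fold, and the BH3-only protein Noxa (Pmaip1) 3.48-fold. Protective members rose as well, Bcl2l1 1.52-fold and Bcl2a1b, a leukocyte gene with near-identical copies, 4.71-fold. Ripk3 held 6.71 to 8.42 CPM in MI, against 1.76 to 4.18 CPM in sham libraries, Mlkl 7.17 to 11.7 CPM in MI, against 2.82 to 4.41 CPM in sham libraries and Bak1 65.7 to 89.5 CPM in MI, against 36.9 to 42.5 CPM in sham libraries, each without overlap. Pycard passed the test without MI replicate 2 (lowest edgeR adjusted p = 0.0127). The call of Gsdmd was lost without any MI replicate or sham replicates 1, 3, 4 or 5 (highest edgeR adjusted p = 0.124).

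Clotting and clot removal genes moved in both directions. Plaur, the receptor that holds urokinase on the cell surface, held 27.9, 23.8, 19.6, 24.5 and 21.7 CPM in MI libraries, against 3.997, 5.71, 2.65, 2.63 and 3.35 CPM in sham libraries. Every MI library lay far above every sham library, and Plaur was 5.99-fold higher, with a log2 fold change of 2.58 (SE 0.17, adjusted p = 9.15e-08 by edgeR). Urokinase itself (Plau) rose 3.08-fold, while tissue activator (Plat) rose 1.33-fold (adjusted p = 0.0158 by edgeR). Coagulation factor X (F10) rose 6.996-fold (5.59 to 9.74 CPM in MI, against 0.618 to 1.29 CPM in sham libraries) and factor VII (F7) 4.54-fold from under 1 CPM in sham libraries (1.13 to 2.34 CPM in MI, against 0 to 0.609 CPM in sham libraries). Tissue factor (F3), which starts clotting outside vessels, fell 1.61-fold. Thrombomodulin (Thbd) and the tissue factor inhibitor Tfpi, which hold clotting back on endothelium, fell 1.42-fold and 1.32-fold. The endothelial protein C receptor Procr rose 2.81-fold and the protease-activated receptor F2rl1 4.25-fold. Over the list 11 of 21 tested genes were higher and 5 lower (median 0.41), beside platelet markers at 98.6 to 152 CPM in MI, against 24.7 to 41.4 CPM in sham libraries. The list holds 25 genes, and members low in sham libraries, such as F7, could be tested only when high in MI, which can raise the higher share.

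Among prostaglandin and leukotriene genes 9 of 24 were higher and 4 lower (median 0.14). The inducible cyclooxygenase Ptgs2 held 20.5, 9.74, 13.9, 16.99 and 13.1 CPM in MI libraries, against 3.55, 1.98, 2.56, 2.16 and 2.47 CPM in sham libraries. All MI values lay above all sham values, a 5.48-fold rise (adjusted p = 7.74e-07 by edgeR). Prostaglandin E synthase (Ptges), the next enzyme, had a log2 fold change of -0.39 ± 0.19 SE (adjusted p = 0.111 by edgeR). On the leukotriene branch Alox5ap, which presents arachidonate to 5-lipoxygenase, rose 2.6000000000000001-fold and the leukotriene B4 receptor Ltb4r1 6.27-fold. Prostaglandin D synthase (Ptgds) averaged 300.3 ± 28.5 CPM in MI, against 619 ± 108 CPM in sham libraries (SD, n = 5), 2.19-fold lower, and the degrading enzyme Hpgd was 1.81-fold lower.

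The vascular selectins and the selectin ligand Selplg rose, while the integrin ligands Icam1 and Vcam1 did not pass the test. Among 13 adhesion genes 6 were higher and 1 lower (median 0.21). P-selectin (Selp), carried by platelets and activated endothelium, held 9.04 to 19.5 CPM in MI, against 2.38 to 6.16 CPM in sham libraries, a 3.91-fold rise, and E-selectin (Sele), an endothelial gene, rose 2.23-fold (3.98 to 5.62 CPM in MI, against 0.854 to 3.04 CPM in sham libraries). Selplg, carried by leukocytes, rose 3.69-fold. Icam1 averaged 17.7 ± 0.975 CPM in MI, against 16.5 ± 1.28 CPM in sham libraries and Vcam1 39.9 ± 4.23 CPM in MI, against 31.7 ± 8.56 CPM in sham libraries (SD, n = 5 each), with log2 fold changes of 0.01 and 0.24 (adjusted p = 0.941 and 0.177 by edgeR). The leukocyte marker sums given above moved with Selplg. Vcam1 passed the test without sham replicate 2 (lowest edgeR adjusted p = 0.0406).

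Activin subunits and an activin-binding inhibitor rose. Of 27 TGF-beta, BMP and activin genes 11 were higher and 6 lower (median 0.23). Inhba, the activin A subunit, held 12.6, 7.795, 6.36, 9.52 and 8.38 CPM in MI libraries, against 2.58, 0.989, 0.939, 0.772 and 1.67 CPM in sham libraries. Inhba was 6.08-fold higher without overlap (adjusted p = 4.16e-06 by edgeR). Inhbb, the subunit of activin B, rose 4.32-fold and the activin-binding protein Fstl3 5.09-fold (17.8 to 35.9 CPM in MI, against 3.58 to 6.32 CPM in sham libraries). Of the TGF-beta ligands Tgfb2 rose 3.17-fold, Tgfb3 1.86-fold and Tgfb1 1.71-fold. The latent binding proteins went different ways, Ltbp2 3.71-fold higher and Ltbp4 1.91-fold lower, and the feedback inhibitor Smad7 had a log2 fold change of 0.23 ± 0.13 SE (adjusted p = 0.171 by edgeR). Smad7 passed the test without MI replicate 2 (lowest edgeR adjusted p = 0.0102).

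The matricellular CCN family includes Ccn1 and Ccn2, genes that respond to mechanical and Hippo signalling among other signals. Such signalling was not measured here. Ccn2 (ENSMUSG00000019997, chromosome 10, 24595442 to 24598683) held 829, 523, 826, 953 and 801 CPM in MI libraries, against 149.7, 93.04, 93.3, 104 and 111 CPM in sham libraries. Its groups stood far apart, with a log2 fold change of 2.75 (SE 0.17, adjusted p = 1.36e-07 by edgeR), 6.73-fold higher. Its relative Ccn1 rose 1.64-fold. The Hippo effector Yap1 averaged 174 ± 9.29 CPM in MI, against 169 ± 11.01 CPM in sham libraries (SD, n = 5; log2 fold change -0.05, edgeR adjusted p = 0.657), and of 22 Notch and Hippo genes, both Ccn genes included, 4 were higher and 4 lower (median -0.06). Both shares, 18.2%, lay below the 24.1% higher and 22.2% lower of all genes tested.

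Several ligands of the EGF receptors rose and a neuregulin receptor fell. Heparin-binding EGF-like growth factor (Hbegf) held 109, 83.5, 90.2, 150.5 and 122 CPM in MI libraries, against 25.6, 20.997, 23.9997, 21.9 and 21.6 CPM in sham libraries, 4.58-fold higher without overlap (adjusted p = 2.53e-07 by edgeR). Epiregulin (Ereg) rose 7.05-fold (5.12 to 6.48 CPM in MI, against 0.309 to 1.24 CPM in sham libraries) and neuregulin 1 (Nrg1) 2.27-fold at a low level (1.63 to 2.14 CPM in MI, against 0.456 to 1.24 CPM in sham libraries). Erbb4, the neuregulin receptor of heart muscle, fell 1.63-fold and averaged 16.6 ± 1.41 CPM in MI, against 25.4 ± 3.07 CPM in sham libraries (SD, n = 5). Of the 12 genes of this family tested 4 were higher and 2 lower (median 0.14).

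Genes of insulin and IGF signalling were more often lower than higher. Of 19 genes 11 were lower and 2 higher, and the median log2 fold change was -0.51. Slc2a4 (ENSMUSG00000018566, chromosome 11, 69942539 to 69948188), the insulin-responsive glucose carrier GLUT4 of muscle, held 230.5, 365, 217, 210.1 and 246 CPM in MI libraries, against 583, 629, 545, 572 and 502 CPM in sham libraries. MI replicate 2 was the highest of the MI libraries and still below every sham library. Slc2a4 was 2.39-fold lower, with a log2 fold change of -1.26 (SE 0.12, adjusted p = 2.35e-06 by edgeR). The adaptor Irs1 fell 1.59-fold (adjusted p = 0.00369 by edgeR) with overlap, and Irs2 had a log2 fold change of -0.53 ± 0.34 SE (adjusted p = 0.216 by edgeR). Pik3ip1, an inhibitor of PI3-kinase, fell 1.802-fold and the transcription factor Foxo3, which insulin signalling holds out of the nucleus, 1.61-fold. The binding protein Igfbp3 rose 2.699-fold (83.6 to 155 CPM in MI, against 31.4 to 48.8 CPM in sham libraries), and Igf1 itself had a log2 fold change of 0.19 ± 0.10 SE (adjusted p = 0.127 by edgeR).

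Wnt genes had 3 of 19 tested higher and 7 lower (median -0.29). The receptors Fzd1 and Fzd2 rose 1.43-fold and 1.62-fold, and Frzb, a secreted antagonist, 1.61-fold. The ligand Wnt5a fell 1.56-fold and the inhibitory factor Wif1 1.62-fold, while the antagonists Sfrp2 and Dkk3 had log2 fold changes of 0.02 ± 0.26 SE and -0.29 ± 0.12 SE (adjusted p = 0.956 and 0.0675 by edgeR). The call of Wif1 was lost without MI replicates 1, 3 or 4 or sham replicates 2, 3 or 4 (highest edgeR adjusted p = 0.0822). Dkk3 passed the test without MI replicate 2 or sham replicate 3 (lowest edgeR adjusted p = 0.0142).

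Immediate early transcription factors, which cells switch on within minutes of a stimulus, were split between members by day 2. Of 20 genes 9 were higher and 2 lower (median 0.38). Myc, which drives growth and ribosome production, held 25.7, 19.3, 16.7, 23.8 and 20.9 CPM in MI libraries, against 4.44, 6.92, 3.502, 4.17 and 2.997 CPM in sham libraries, 4.5003-fold higher without overlap (adjusted p = 6.85e-07 by edgeR). Maff rose 2.95-fold, the AP-1 member Fosl1 2.77-fold, Egr2 3.32-fold and the survival factor Ier3 2.66-fold (108 to 170.2 CPM in MI, against 38.4 to 52.9 CPM in sham libraries). Atf3, induced by many stresses, rose 2.28-fold (adjusted p = 0.0125 by edgeR), with MI replicate 5 at 72.5 and sham replicate 1 at 31.2 CPM. Fos held 15.5, 25.3, 13.9, 18.98 and 22.5 CPM in MI libraries, against 13.6, 30.4, 62.7, 8.96 and 37.02 CPM in sham libraries. The sham libraries ranged more widely than the MI ones for Fos, with a log2 fold change of -0.75 ± 0.45 SE (adjusted p = 0.195 by edgeR), and Egr1 likewise had one of -0.94 ± 0.38 SE (adjusted p = 0.067 by edgeR). Fos passed the test without sham replicate 4 (lowest edgeR adjusted p = 0.0428). Egr1 passed the test without MI replicate 5 or sham replicate 4 (lowest edgeR adjusted p = 0.00144).

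MAP kinase phosphatases and Sprouty proteins, which both damp MAP kinase signalling, had 8 of 15 genes higher and 3 lower (median 0.38). Dusp4 and Dusp6, which act on ERK, rose 1.72-fold and 1.45-fold, and Dusp1, itself an immediate early gene, fell 1.66-fold. Among p53 targets and growth arrest genes 9 of 16 were higher and 4 lower (median 0.45). The cell cycle inhibitor Cdkn1a, or p21, held 87.1 to 195 CPM in MI, against 38.9 to 74.3 CPM in sham libraries, 2.37-fold higher, and Gadd45g rose 3.46-fold whereas its relative Gadd45a fell 1.91-fold. Mdm2, a direct p53 target that degrades p53, averaged 108 ± 7.17 CPM in MI, against 99.1 ± 9.71 CPM in sham libraries (SD, n = 5; log2 fold change 0.03, edgeR adjusted p = 0.772).

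**Figure D2:**
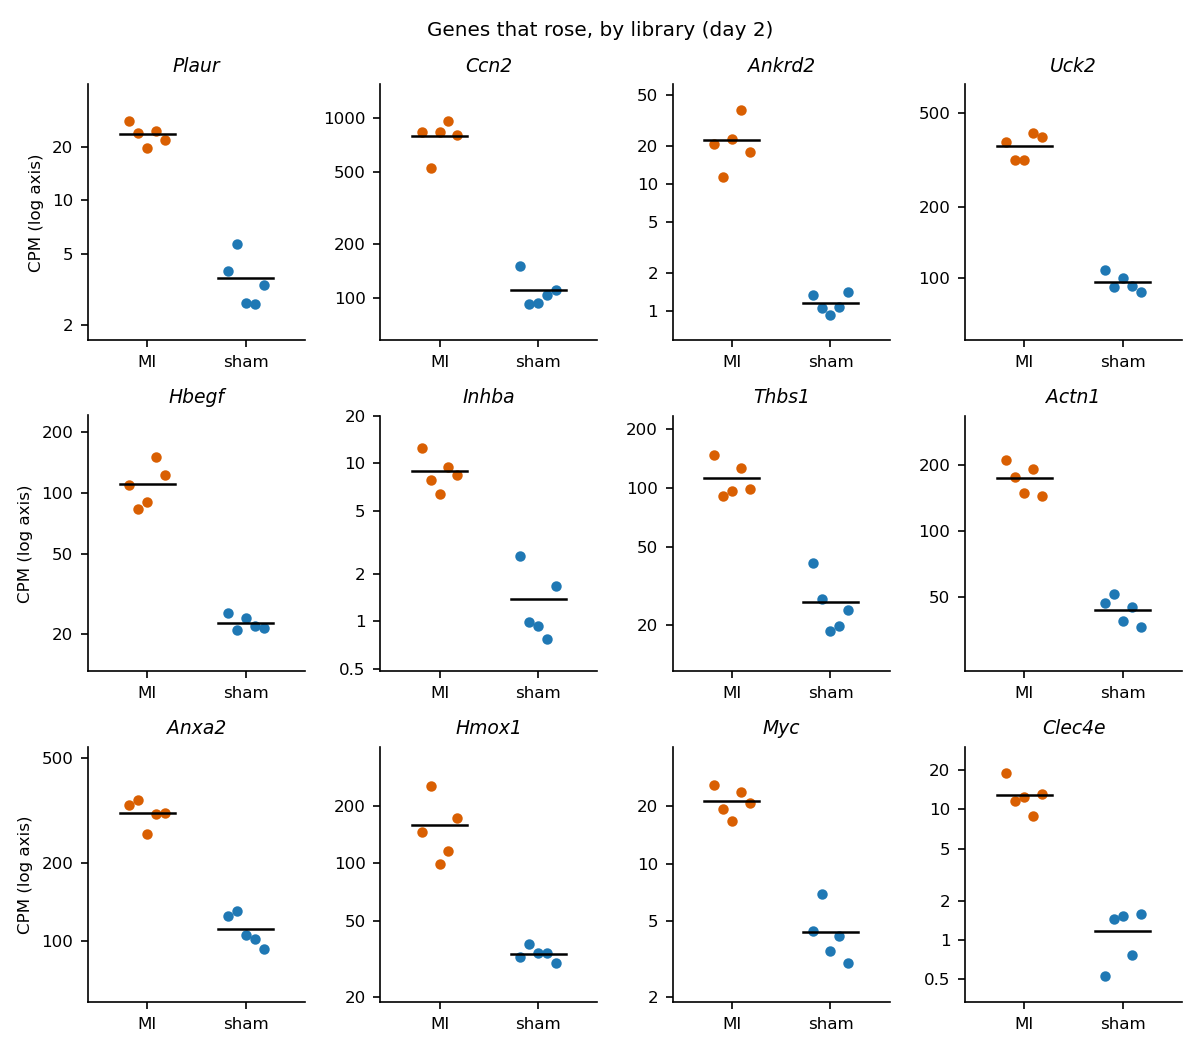
CPM on a log axis in each of the 10 libraries for 12 genes that rose: MI libraries left (orange), sham libraries right (blue), 1 point per library, with a bar at the mean of each group. Ccn2 reaches the highest CPM, and the groups do not overlap for any of the 12 genes.

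The actin cytoskeleton outside the sarcomere rose almost as a whole. Of 29 genes 26 were higher and 1 lower, against 24.1% higher over all genes, and the median log2 fold change was 0.94. Non-muscle alpha-actinin Actn1 (ENSMUSG00000015143, chromosome 12, 80167547 to 80260371), which crosslinks actin at adhesions and stress fibres, held 211, 177, 149, 192 and 145 CPM in MI libraries, against 46.8, 51.8, 38.9, 44.96 and 36.7 CPM in sham libraries. The groups were widely separated, with a log2 fold change of 1.90 (SE 0.11, adjusted p = 3.15e-08 by edgeR), 3.74-fold higher. Moesin (Msn), which ties actin to the membrane, rose 2.66-fold and averaged 665 ± 140.4 CPM in MI, against 235 ± 32.8 CPM in sham libraries (SD, n = 5), while its close relative ezrin (Ezr) fell 1.26-fold. The tubulin Tubb6 rose 3.12-fold, the capping protein Capg 3.12-fold, tropomyosin 4 (Tpm4) 2.21-fold, vimentin (Vim) 1.77-fold and beta-actin (Actb) 1.92-fold. Actb, often used to scale other measurements, held 816 to 1167 CPM in MI, against 406 to 549.7 CPM in sham libraries. Filamin C (Flnc), the filamin of muscle, rose 2.22-fold with overlap, MI replicate 4 reaching 1196 CPM, and vinculin (Vcl) had a log2 fold change of 0.13 ± 0.22 SE (adjusted p = 0.646 by edgeR). Capg and several other members are abundant in leukocytes, whose markers rose too.

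Annexins and S100 proteins bind calcium, and some of them help to reseal torn membranes. Of 20 genes of annexins, S100 proteins and membrane repair 14 were higher and 2 lower (median 0.67). Annexin A2 (Anxa2) held 330.3, 346, 258, 307 and 309 CPM in MI libraries, against 125, 131, 106, 103 and 93.6 CPM in sham libraries, 2.61-fold higher without overlap (adjusted p = 1.62e-07 by edgeR). S100a4 rose 3.53-fold, S100a11 2.73-fold, S100a6 2.58-fold and annexin A1 (Anxa1) 1.69-fold. Trim72, known as MG53, the muscle protein that starts membrane repair, fell 1.31-fold and averaged 387 ± 11.9 CPM in MI, against 476 ± 34.5 CPM in sham libraries (SD, n = 5).

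Of 28 integrin and focal adhesion genes 15 were higher and 4 lower (median 0.38). Integrin beta 3 (Itgb3), shared by platelets and cells bound to fibrin and vitronectin, rose 4.39-fold (12.6 to 21.2 CPM in MI, against 3.33 to 4.25 CPM in sham libraries), the fibronectin receptor Itga5 2.59-fold (165 to 248 CPM in MI, against 57.8 to 94.5 CPM in sham libraries) and the leukocyte integrin Itgam 3.34-fold. Itgb6, whose protein activates latent TGF-beta in epithelium, held 8.02, 20.7, 3.61, 3.62 and 7.82 CPM in MI libraries, against 22.4, 21.9, 27.1, 29.8 and 31.5 CPM in sham libraries. MI replicate 2 lay near the sham libraries and the other 4 MI libraries far below them, with a log2 fold change of -1.69 ± 0.39 SE (adjusted p = 0.00436 by edgeR). Without MI replicate 2 the log2 fold change of Itgb6 was -2.31 (adjusted p = 6.99e-06 by edgeR). The migration adaptor Fblim1 fell 1.82-fold.

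Hyaluronan genes had 8 of 12 tested higher and 1 lower (median 0.62). Its receptor Cd44 held 78.2 to 96.6 CPM in MI, against 22.04 to 31.4 CPM in sham libraries, 3.16-fold higher, the synthase Has2 rose 2.61-fold, and Has1 had a log2 fold change of 0.38 ± 0.30 SE (adjusted p = 0.32 by edgeR). Among thrombospondins and small leucine-rich proteoglycans 2 of 15 were higher and 7 lower (median -0.44). Thrombospondin 1 (Thbs1), a matricellular protein that also activates TGF-beta, held 147, 91.4, 96.2, 127 and 98.3 CPM in MI libraries, against 41.1, 27.2, 18.4, 19.8 and 23.7 CPM in sham libraries, 4.04-fold higher. Decorin (Dcn), which coats collagen fibrils, fell 1.71-fold and osteoglycin (Ogn) 1.77-fold (101 to 153 CPM in MI, against 187 to 217 CPM in sham libraries), while biglycan (Bgn) had a log2 fold change of 0.33 ± 0.15 SE (adjusted p = 0.073 by edgeR). Of 22 laminin, basement membrane and elastic fibre genes 4 were higher and 7 lower (median -0.30). Fibulin 1 (Fbln1) fell 2.39-fold, laminin beta 3 (Lamb3) 2.11-fold and laminin alpha 2 (Lama2), the laminin of muscle basement membrane, 1.61-fold, whereas the microfibril protein Mfap5 rose 2.22-fold. Elastin (Eln) had a log2 fold change of -0.35 ± 0.22 SE (adjusted p = 0.217 by edgeR). Bgn passed the test without MI replicate 5 or sham replicate 1 (lowest edgeR adjusted p = 0.018).

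Ribosome production and translation genes were more often higher than lower. Of 27 ribosome biogenesis factors 15 were higher and 1 lower (median 0.40). Nhp2, a protein of the small nucleolar particles that modify ribosomal RNA, held 54.2, 54.6, 43.6, 43.2 and 46.01 CPM in MI libraries, against 17.8, 18.03, 23.2, 16.5 and 23.5 CPM in sham libraries, 2.28-fold higher without overlap (adjusted p = 1.36e-06 by edgeR). Nop58 of the related particles rose 1.78-fold, the nucleolar protein Ncl 1.35-fold and Rrp12, an export factor of ribosomal subunits, 1.91-fold with overlap. The largest subunit of RNA polymerase I, Polr1a, fell 1.36-fold (adjusted p = 0.00886 by edgeR). Of 23 translation factors and tRNA ligases 12 were higher and 2 lower (median 0.26). The helicase Eif4a1 rose 1.79-fold, the ribosome anti-association factor Eif6 1.79-fold and Eif4ebp1, which restrains cap-dependent translation, 1.92-fold. The elongation factor of most cells, Eef1a1, held 1751 ± 300.3 CPM in MI, against 1074 ± 142 CPM in sham libraries and its muscle and nerve counterpart Eef1a2 1164 ± 32.8 CPM in MI, against 1515 ± 163 CPM in sham libraries (SD, n = 5 each). Eef1a1 rose 1.52-fold and Eef1a2 fell 1.39-fold.

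Enzymes that make serine, one-carbon units and asparagine are targets of the transcription factor ATF4, which binds the C/EBP-ATF response element. The promoter of Asns, asparagine synthetase, is shown since it holds this element, from 250 bases before to 50 after the start in RefSeq (GRCm38.p6, chr6:7693160-7693459, minus strand), with the match to TGATGNAAN in capitals:
Asns: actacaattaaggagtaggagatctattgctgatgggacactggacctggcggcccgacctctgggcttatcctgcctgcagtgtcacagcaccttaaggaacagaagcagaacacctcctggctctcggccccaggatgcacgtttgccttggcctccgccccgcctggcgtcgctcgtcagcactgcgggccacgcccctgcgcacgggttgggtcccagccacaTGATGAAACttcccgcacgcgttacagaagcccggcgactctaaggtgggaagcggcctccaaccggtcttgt
Both strands were searched, and 3.95% of all 32851 RefSeq promoters of this length held a match, as did 4 of the 16 list members with a promoter in that table (Asns, Chac1, Trib3 and Nupr1). Asns held 12.04, 10.6, 7.53, 11.9 and 8.195 CPM in MI libraries, against 4.17, 4.79, 5.21, 3.71 and 3.79 CPM in sham libraries. The groups did not overlap and Asns rose 2.18-fold (adjusted p = 5.05e-05 by edgeR). The serine pathway transaminase Psat1 rose 3.99-fold (26.4 to 33.3 CPM in MI, against 6.08 to 7.601 CPM in sham libraries), and the mitochondrial folate enzymes Mthfd2 and Mthfd1l 2.94-fold and 4.09-fold. Of the others with a match, Trib3 rose 1.9002-fold and Nupr1 1.34-fold, and Chac1 had a log2 fold change of 0.20 ± 0.32 SE (adjusted p = 0.642 by edgeR). Over the list 8 of 18 genes were higher and 1 lower (median 0.20), the 1 lower being the lipoprotein receptor Vldlr, another ATF4 target, at 1.94-fold. The call of Nupr1 was lost without MI replicate 1 or sham replicates 4 or 5 (highest edgeR adjusted p = 0.0544).

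Amino acid transporters had 8 of 15 genes higher and 2 lower (median 0.37). The leucine carrier Slc7a5 rose 3.85-fold (21.3 to 37.8 CPM in MI, against 4.697 to 8.79 CPM in sham libraries) and its partner chain Slc3a2 1.39-fold. The taurine carrier Slc6a6 held 503, 307, 496, 603 and 377 CPM in MI libraries, against 201, 203, 133, 180.2 and 164 CPM in sham libraries, 2.45-fold higher without overlap. Slc38a3, a glutamine carrier, fell 2.603-fold, and the arginine carrier Slc7a1 had a log2 fold change of -0.19 ± 0.10 SE (adjusted p = 0.135 by edgeR). Slc7a1 passed the test without sham replicates 2 or 3 (lowest edgeR adjusted p = 0.0392).

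Purine and pyrimidine genes moved in both directions. Of 21 genes of synthesis and salvage 9 were higher and 3 lower (median 0.17). Uck2 (ENSMUSG00000026558, chromosome 1, 167222883 to 167285320), the kinase that recovers uridine and cytidine, held 377, 316, 316, 414 and 397 CPM in MI libraries, against 108, 91.7, 99.2, 91.9 and 86.6 CPM in sham libraries. The lowest MI value of Uck2 was well above the highest sham value, with a log2 fold change of 1.84 (SE 0.10, adjusted p = 1.86e-08 by edgeR), 3.58-fold higher. Uridine phosphorylase (Upp1) rose 3.09-fold, Nme1, which makes nucleoside triphosphates, 2.09-fold and CTP synthase (Ctps) 1.87-fold. Cad, which starts pyrimidine synthesis, had a log2 fold change of 0.14 ± 0.16 SE (adjusted p = 0.48 by edgeR), Dhodh fell 1.57-fold and Paics, of purine synthesis, 1.28-fold.

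Polyamine and arginine enzymes had 7 of 14 genes higher and 3 lower (median 0.30). Ornithine decarboxylase (Odc1), the first enzyme of polyamine synthesis, held 129.7, 119.9, 108, 124 and 143 CPM in MI libraries, against 53.7, 53.4, 63.97, 54.2 and 56.5 CPM in sham libraries, 2.08-fold higher without overlap. Spermidine synthase (Srm) rose 1.77-fold and the degrading enzyme Sat1 1.82-fold. Cholesterol genes had 9 of 25 higher and 3 lower (median 0.15), with squalene epoxidase (Sqle) 2.27-fold higher. Hmgcs1, near the start of the pathway, had a log2 fold change of 0.02 ± 0.08 SE (adjusted p = 0.847 by edgeR).

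NRF2 targets and antioxidant enzymes were higher in 9 of 20 cases and lower in 2 (median 0.08). Heme oxygenase 1 (Hmox1; ENSMUSG00000005413, chromosome 8, 75093621 to 75100589), which breaks down heme, held 146, 255, 99.6, 117 and 172 CPM in MI libraries, against 32.4, 37.8, 34.1, 34.1 and 29.97 CPM in sham libraries. MI replicate 2 was the highest, and all MI libraries lay far above the sham libraries, 4.38-fold higher (adjusted p = 5.45e-06 by edgeR). The cystine carrier Slc7a11, which feeds glutathione synthesis, rose 5.63-fold (3.12 to 4.42 CPM in MI, against 0.304 to 0.927 CPM in sham libraries), glutathione reductase (Gsr) 1.78-fold, thioredoxin reductase (Txnrd1) 1.53-fold and sulfiredoxin (Srxn1) 1.64-fold. Nqo1, another NRF2 target, fell 1.31-fold with overlap and mitochondrial superoxide dismutase (Sod2) 1.42-fold without overlap, and catalase (Cat) had a log2 fold change of -0.19 ± 0.10 SE (adjusted p = 0.14 by edgeR). Cat passed the test without MI replicate 4 (lowest edgeR adjusted p = 0.0226).

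Iron genes were more often lower than higher. Of 22 genes of heme synthesis and iron handling 9 were lower and 3 higher (median -0.11). The transferrin receptor Tfrc, which takes up iron, held 203, 154, 144, 250.2 and 172 CPM in MI libraries, against 88.2, 59.2, 59.2, 69.8 and 76.7 CPM in sham libraries, 2.46-fold higher, and the ferritin light chain Ftl1, which has near-identical pseudogenes, rose 1.55-fold. Ferroportin (Slc40a1), the iron exporter, fell 1.75-fold (15.9 to 30.3 CPM in MI, against 40.3 to 45.7 CPM in sham libraries) and Alad, of heme synthesis, 1.57-fold. Alas1, the first enzyme of heme synthesis, had a log2 fold change of -0.13 ± 0.16 SE (adjusted p = 0.521 by edgeR). Tfrc is also high in red cell precursors, and the erythroid marker sum was 230.3 to 837 CPM in MI, against 94.4 to 221 CPM in sham libraries.

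Metallothioneins hold zinc and copper and are switched on through metal response elements. The promoters of the neighbouring genes Mt2 and Mt1 are shown because the genes lie side by side and only Mt2 was called. Both run from 250 bases before to 50 after the start in RefSeq (GRCm38.p6, chr8:94172368-94172667 and chr8:94178839-94179138, plus strand). Matches on either strand to TGCNCNC, which is looser than the core TGCRCNC (R is A or G), are in capitals:
Mt2: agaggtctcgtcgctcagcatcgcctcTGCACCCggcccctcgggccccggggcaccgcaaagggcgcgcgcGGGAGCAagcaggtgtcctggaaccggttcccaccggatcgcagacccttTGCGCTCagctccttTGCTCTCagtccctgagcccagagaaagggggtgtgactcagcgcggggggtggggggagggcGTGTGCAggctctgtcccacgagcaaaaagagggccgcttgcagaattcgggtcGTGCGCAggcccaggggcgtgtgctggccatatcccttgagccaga
Mt1: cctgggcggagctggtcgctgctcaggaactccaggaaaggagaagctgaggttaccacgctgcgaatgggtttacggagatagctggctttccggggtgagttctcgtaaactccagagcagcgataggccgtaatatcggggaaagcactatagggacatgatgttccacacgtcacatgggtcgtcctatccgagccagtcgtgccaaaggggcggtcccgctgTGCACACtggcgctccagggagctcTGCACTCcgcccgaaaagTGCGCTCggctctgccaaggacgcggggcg
The Mt2 window held 6 matches and the Mt1 window 3. Read along the strand of the match, the Mt2 stretches GGGAGCA and TGCTCTC have T in the place of R, outside the core. All Mt1 matches have A or G there. Letters as loose as TGCNCNC occur in 51.0% of all RefSeq promoters. Bases beyond these windows were not searched, so the counts of matches do not rank these genes. Mt2 held 176, 81.9, 152, 223 and 165 CPM in MI libraries, against 42.6, 69.5, 86.01, 45.2 and 53.3 CPM in sham libraries, 2.53-fold higher (adjusted p = 0.00177 by edgeR), MI replicate 2 lying within the sham range. Mt1 held 341, 222, 316, 354 and 372 CPM in MI libraries, against 182, 239, 309, 189.9 and 219 CPM in sham libraries, with a log2 fold change of 0.41 ± 0.16 SE (adjusted p = 0.0555 by edgeR). For both genes MI replicate 2 was the lowest MI library. Whether Mt2 and Mt1 differ in their response was not tested. Of 13 metallothionein and zinc transporter genes 7 were higher and 2 lower (median 0.34), led by the zinc importer Slc39a6, 2.81-fold higher. Mt1 passed the test without MI replicate 2 or sham replicate 3 (lowest edgeR adjusted p = 0.00801).

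Of 20 heat shock proteins and chaperones in the list 4 were higher and 5 lower (median -0.20). These shares, 20% and 25%, lay near the 24.1% and 22.2% of all genes tested. The 4 higher ones in the list were the small heat shock proteins Hspb1, Hspb7, Cryab and Hspb2. The promoters of Hspb1 and of the inducible HSP70 gene Hspa1a are shown because both hold the heat shock element and only Hspb1 was called (RefSeq, GRCm38.p6, 250 bases before to 50 after the start; chr5:135887669-135887968, plus strand, and chr17:34972107-34972406, minus strand). Matches to GAANNTTC, which reads the same on both strands, are in capitals:
Hspb1: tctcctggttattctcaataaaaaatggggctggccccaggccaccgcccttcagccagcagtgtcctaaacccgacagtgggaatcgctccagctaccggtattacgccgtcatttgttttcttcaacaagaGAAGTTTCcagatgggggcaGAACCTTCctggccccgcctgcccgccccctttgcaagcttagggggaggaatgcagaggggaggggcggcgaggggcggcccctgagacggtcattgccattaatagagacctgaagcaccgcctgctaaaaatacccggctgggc
Hspa1a: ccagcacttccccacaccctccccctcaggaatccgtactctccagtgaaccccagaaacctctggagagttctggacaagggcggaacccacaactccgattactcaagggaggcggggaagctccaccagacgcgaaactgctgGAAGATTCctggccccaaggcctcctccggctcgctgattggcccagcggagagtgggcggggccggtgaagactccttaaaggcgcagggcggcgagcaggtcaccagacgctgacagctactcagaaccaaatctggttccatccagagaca
This motif occurs in 7.86% of all RefSeq promoters and in 9 of the 14 list members with a promoter in the table. Members with a match include Hspb1, Hspa1a and Hspa1b, and also Bag3 and Hspb8, which were lower. Of the 4 members called higher, Hspb7, Cryab and Hspb2 are not among those with a match. Only 14 of the 20 members had a promoter to search, so these genes may lack a match or may not have been searched. Hspb1 held 267, 225, 312, 395 and 351 CPM in MI libraries, against 224, 112, 159, 127 and 115 CPM in sham libraries, 1.98-fold higher (adjusted p = 0.00205 by edgeR), with sham replicate 1 just under the lowest MI library. Hspb7, a small heat shock protein of heart and muscle, held 5796, 4240.0, 5425, 6586 and 5432 CPM in MI libraries, against 3021, 2989.5, 3247, 3031 and 3142 CPM in sham libraries, 1.67-fold higher. Cryab, or alpha B-crystallin, which protects desmin and titin, averaged 3803 ± 248 CPM in MI, against 2299.5 ± 213 CPM in sham libraries (SD, n = 5) and rose 1.55-fold, and Hspb2, its neighbour on the chromosome, rose 1.45-fold. Hspa1a held 4.53, 3.35, 4.35, 7.53 and 22.2 CPM in MI libraries, against 41.9, 2.81, 27.8, 6.87 and 8.198 CPM in sham libraries. Its values ran over each other in both groups, with high values in MI replicate 5 and in sham replicates 1 and 3, and a log2 fold change of -1.13 ± 0.79 SE (adjusted p = 0.268 by edgeR). Reads of Hspa1a and its near-identical copy Hspa1b may be exchanged. The co-chaperone Bag3 fell 1.498-fold and its partner Hspb8, also a small heat shock protein, 1.31-fold.

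Proteasome subunits had 13 of 32 genes higher and 1 lower (median 0.16), with Psma5 1.55-fold, the deubiquitinating subunit Psmd14 1.48-fold and the immunoproteasome subunit Psmb8 1.34-fold higher, while the catalytic subunit Psmb5 had a log2 fold change of 0.14 ± 0.09 SE (adjusted p = 0.193 by edgeR). Lysosomal genes had 13 of 29 higher and 6 lower (median 0.26). Cathepsin S (Ctss), an enzyme of antigen-presenting cells, rose 2.33-fold and alpha-galactosidase (Gla) 1.64-fold, while acid alpha-glucosidase (Gaa), which degrades glycogen, was lower. The abundant cathepsins Ctsb and Ctsd had log2 fold changes of 0.21 ± 0.13 SE and -0.16 ± 0.10 SE (adjusted p = 0.183 and 0.201 by edgeR). Of 18 autophagy and mitophagy genes 1 was higher and 7 lower (median -0.10). The mitophagy receptor Optn fell 1.66-fold, Map1lc3b, which marks autophagosomes, 1.48-fold and the starting kinase Ulk1 1.38-fold. Psmb5 passed the test without sham replicate 3 (lowest edgeR adjusted p = 0.0368).

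Muscle ubiquitin ligases, several of which rise in wasting skeletal muscle, were lower. Of 18 genes 11 were lower and 1 higher (median -0.40). Asb14 held 38.7, 69.9, 50.8, 29.9 and 52.8 CPM in MI libraries, against 108, 129, 142, 123 and 138 CPM in sham libraries, 2.83-fold lower without overlap (adjusted p = 1.6e-05 by edgeR), and its relative Asb15 fell 2.75-fold (26.7 to 55.2 CPM in MI, against 85.3 to 115 CPM in sham libraries). Asb2, which degrades filamins, fell 1.75-fold. Fbxo32, known as atrogin 1, fell 1.59-fold and Trim63, known as MuRF1, 1.32-fold (adjusted p = 0.00275 and 0.0055 by edgeR), both with overlap, sham replicate 1 reading as low as the MI libraries. The heart muscle markers fell over the same libraries, 32643 to 37216 CPM in MI, against 44403 to 50382 CPM in sham libraries in sum.

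**Figure D3:**
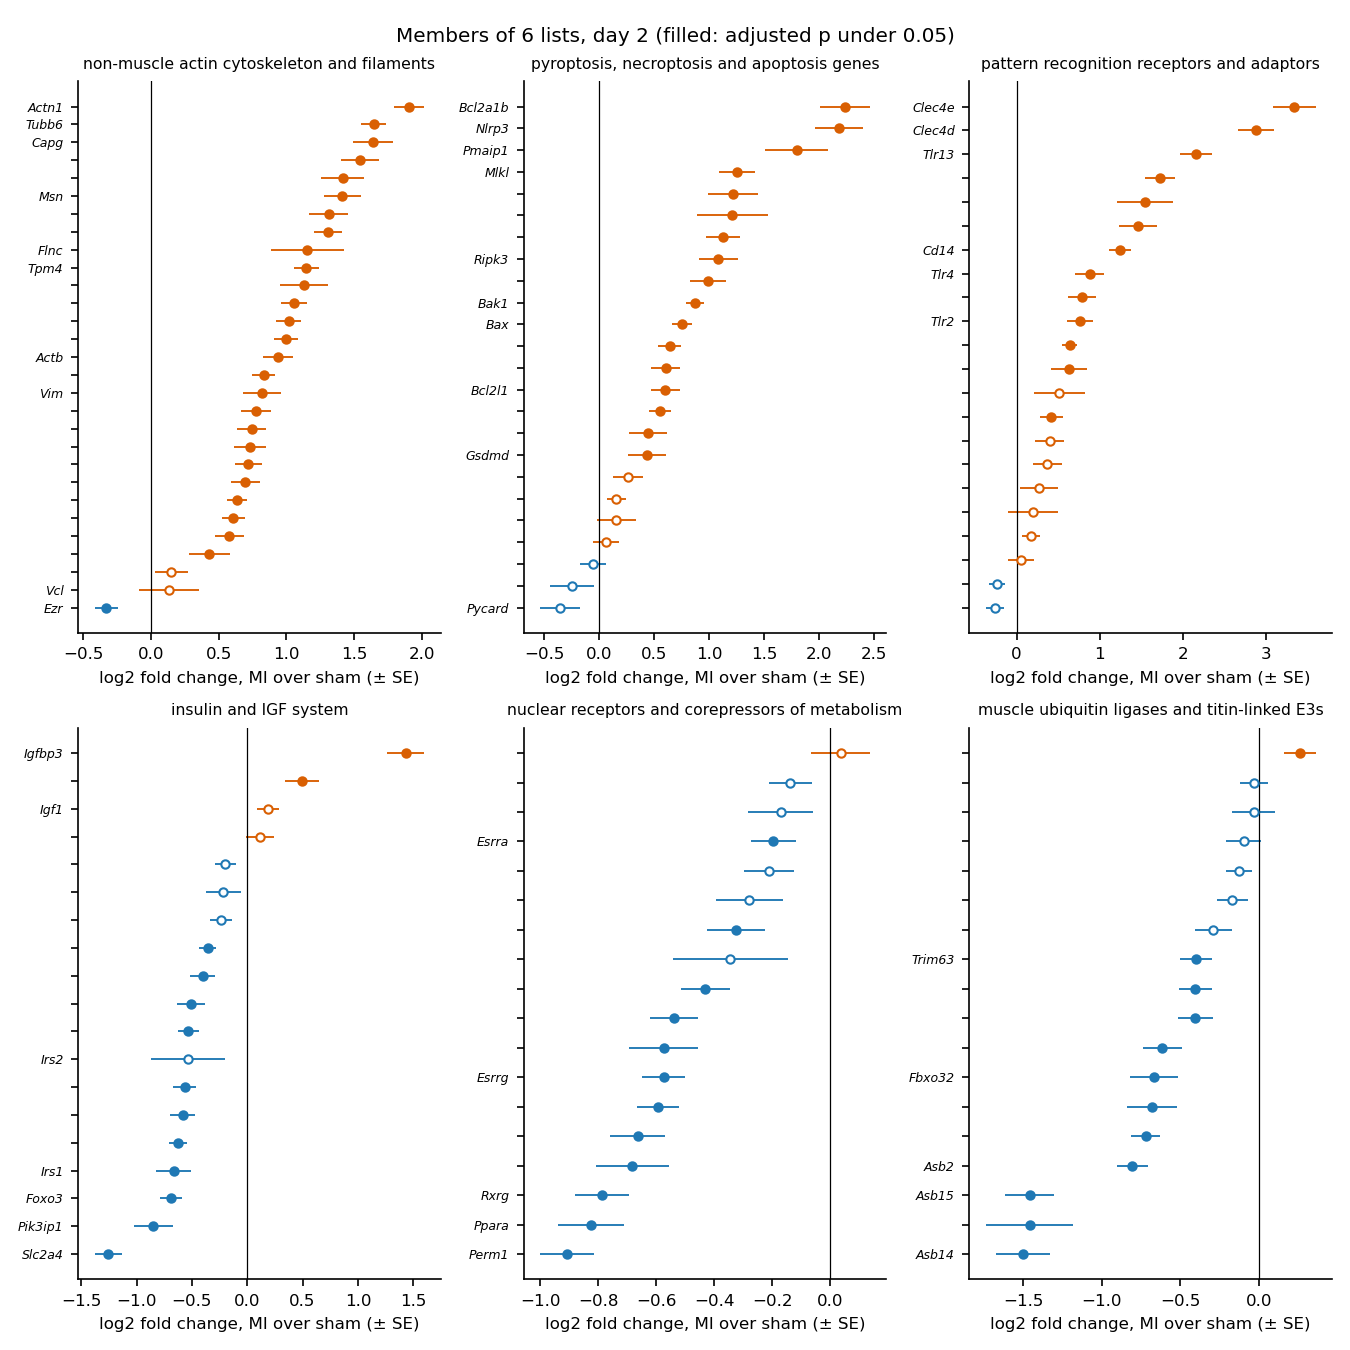
Log2 fold change of MI over sham with its standard error for each tested member of 6 lists, ordered by size within a list; filled points passed edgeR's adjusted p of 0.05 and open points did not. The members of the actin cytoskeleton, cell death and innate receptor lists lie mostly above 0, and those of the insulin and IGF, muscle ligase and nuclear receptor lists mostly below. Members described in the text are labelled.

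The muscle and mitochondrial creatine kinases Ckm and Ckmt2 and myoglobin fell. Of 15 tested genes of the creatine kinase system and of oxygen and nucleotide reserves 7 were lower and 4 higher (median -0.13). Muscle creatine kinase (Ckm; ENSMUSG00000030399, chromosome 7, 19404776 to 19422841) held 638, 839, 896, 765 and 832 CPM in MI libraries, against 1591, 1549.6, 1463, 1573 and 1506 CPM in sham libraries. The groups were apart, with a log2 fold change of -1.04 (SE 0.10, adjusted p = 1.45e-06 by edgeR), 2.06-fold lower. The mitochondrial creatine kinase Ckmt2 fell 1.51-fold and myoglobin (Mb), which stores oxygen, 1.47-fold, averaging 8690.1 ± 883 CPM in MI, against 12012 ± 624 CPM in sham libraries (SD, n = 5). The fatty acid carrier Fabp3 averaged 421 ± 56.2 CPM in MI, against 388 ± 43.5 CPM in sham libraries (SD, n = 5; log2 fold change 0.03, edgeR adjusted p = 0.854). Nt5e, which makes adenosine outside cells, rose 1.696-fold (46.5 to 57.9 CPM in MI, against 25.8 to 30.2 CPM in sham libraries). Mb and Fabp3 are both heart muscle genes of high level, and the marker sum of that cell type was 32643 to 37216 CPM in MI, against 44403 to 50382 CPM in sham libraries.

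The intercalated disc and costamere list had 5 of 23 genes higher and 8 lower (median -0.13). Xirp2, an actin-binding protein of the disc, held 3212, 2945, 3656, 3704 and 3433 CPM in MI libraries, against 1178, 852, 1155, 1128 and 1277 CPM in sham libraries, 2.85-fold higher without overlap (adjusted p = 4.64e-07 by edgeR). Its relative Xirp1 had a log2 fold change of 0.40 ± 0.26 SE (adjusted p = 0.237 by edgeR), sham replicate 1 reading 457 CPM among sham values otherwise of at most 257 CPM. Csrp3, the muscle LIM protein of the Z-disc, held 2317 to 3353 CPM in MI, against 1204 to 1667 CPM in sham libraries, 1.8998-fold higher. Of the desmosome genes, plakophilin 2 (Pkp2) rose 1.42-fold and desmoplakin (Dsp) fell 1.47-fold. Alpha-sarcoglycan (Sgca) fell 1.58-fold, and dystrophin (Dmd) had a log2 fold change of 0.06 ± 0.19 SE (adjusted p = 0.826 by edgeR). Xirp1 passed the test without sham replicate 1 (lowest edgeR adjusted p = 0.0294).

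Sodium pump, proton and water transport genes had 10 of 22 lower and 3 higher (median -0.25). The pump's beta 1 subunit Atp1b1 rose 1.23-fold (adjusted p = 0.026 by edgeR) with overlap, and the pump regulator Fxyd5, found in epithelia and leukocytes, 3.04-fold (77.02 to 107 CPM in MI, against 24.3 to 34.4 CPM in sham libraries). The glycerol channel Aqp7 fell 2.19-fold (8.102 to 13.9 CPM in MI, against 21.3 to 25.03 CPM in sham libraries). The call of Atp1b1 was lost without MI replicate 4 or sham replicates 2 or 5 (highest edgeR adjusted p = 0.0703).

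Of 29 genes of adrenergic, muscarinic and cyclic nucleotide signalling 4 were higher and 8 lower (median 0.03). The receptor Adra1a fell 2.25-fold (8.85 to 14.4 CPM in MI, against 21.3 to 27.5 CPM in sham libraries), Adrb1, the main beta receptor of heart muscle, 1.38-fold with overlap and the cyclase Adcy5 1.36-fold. Grk5, a kinase that desensitises these receptors, held 107, 72.9, 95.2, 123 and 123 CPM in MI libraries, against 45.4, 52.04, 49.5, 51.9 and 53.6 CPM in sham libraries, 1.94-fold higher without overlap. Of 10 tested adenosine and nucleotide receptors 4 were higher and 1 lower (median 0.24), P2ry1 falling 2.66-fold (18.3 to 29.2 CPM in MI, against 48.9 to 62.3 CPM in sham libraries) and the adenosine receptor Adora2b rising 1.78-fold (adjusted p = 0.0108 by edgeR).

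Vasoactive genes had 8 of 23 tested higher and 7 lower (median 0.01). Apelin (Apln), a peptide of endothelial tips that strengthens contraction, held 72.02, 56.4, 37.2, 48.6 and 45.9 CPM in MI libraries, against 19.6, 16.6, 19.5, 19.3 and 20.5 CPM in sham libraries, 2.55-fold higher without overlap. Endothelin 1 (Edn1) and adrenomedullin (Adm) rose 1.401-fold and 1.55-fold with overlap (adjusted p = 0.0338 and 0.0222 by edgeR). The mineralocorticoid receptor Nr3c2 fell 1.87-fold and the angiotensin receptor Agtr1a 1.33-fold. Glucocorticoid receptor and responsive genes had 4 of 12 tested higher and 2 lower (median 0.20), with the chaperone partner Fkbp5 2.02-fold and the transcription factor Cebpd 1.48-fold higher. The call of Edn1 was lost without MI replicates 1 or 3 or sham replicates 4 or 5 (highest edgeR adjusted p = 0.113). The call of Adm was lost without sham replicates 4 or 5 (highest edgeR adjusted p = 0.0535).

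The core cardiac transcription factors Gata4, Nkx2-5 and Tbx20 did not pass the test. Gata4 averaged 169.8 ± 32.2 CPM in MI, against 156 ± 21.3 CPM in sham libraries, Nkx2-5 113 ± 11.4 CPM in MI, against 109 ± 3.42 CPM in sham libraries and Tbx20 152 ± 17.5 CPM in MI, against 154 ± 21.5 CPM in sham libraries (SD, n = 5 each), with edgeR adjusted p of 0.825, 0.73 and 0.441. Over 21 tested cardiac transcription factors and cofactors 2 were higher and 9 lower (median -0.19). Ankrd2 (ENSMUSG00000025172, chromosome 19, 42036000 to 42045110), an ankyrin repeat protein that moves between sarcomere and nucleus in stretched muscle, held 20.6, 11.3, 22.8, 38.1 and 17.9 CPM in MI libraries, against 1.33, 1.07, 0.939, 1.08 and 1.41 CPM in sham libraries. All sham values lay close to 1 CPM, and Ankrd2 was 17.9-fold higher, with a log2 fold change of 4.16 (SE 0.34, adjusted p = 1.38e-06 by edgeR). Prox1 fell 1.92-fold and Klf15, a brake on hypertrophy and a regulator of metabolism, 1.64-fold.

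Nuclear receptors and cofactors of metabolism were lower or not past the test. Of 18 tested 12 were lower and 0 higher (median -0.49). The higher count was also 0 at an unadjusted p under 0.05 in edgeR, in DESeq2 and in limma voom. Perm1 (ENSMUSG00000078486, chromosome 4, 156215868 to 156221307), a muscle regulator of mitochondrial genes, held 279, 366, 305, 301 and 377 CPM in MI libraries, against 569, 581, 578, 569 and 571 CPM in sham libraries. The sham values lay within a narrow range and all MI values below it, with a log2 fold change of -0.91 (SE 0.09, adjusted p = 2.83e-06 by edgeR), 1.88-fold lower. Ppara, the fatty acid receptor that drives oxidation genes, held 30.9 to 42.1 CPM in MI, against 48.9 to 64.7 CPM in sham libraries, 1.77-fold lower, the retinoid X receptor Rxrg fell 1.72-fold and the estrogen-related receptors Esrrg and Esrra 1.49-fold and 1.15-fold (adjusted p = 2.23e-05 and 0.0476 by edgeR). The call of Esrra was lost without MI replicates 1, 2, 3 or 4 or sham replicates 2, 3, 4 or 5 (highest edgeR adjusted p = 0.107).

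Of 18 triglyceride and phospholipid genes 7 were lower and 3 higher (median -0.04). Angptl4, which inhibits lipoprotein lipase, held 63.99, 50.2, 37.3, 92.3 and 80.2 CPM in MI libraries, against 3.997, 13.9, 7.601, 11.3 and 6.88 CPM in sham libraries, 6.94-fold higher without overlap (adjusted p = 4.42e-05 by edgeR). Lipoprotein lipase (Lpl) itself fell 1.399-fold and averaged 5615 ± 535 CPM in MI, against 7383 ± 667 CPM in sham libraries (SD, n = 5), and the triglyceride-making enzymes Dgat2 and Lpin1 fell 1.99-fold and 2.203-fold, while the droplet coat protein Plin2 rose 1.91-fold. Peroxisome genes had 10 of 22 lower and 2 higher (median -0.24), with the import factor Pex6 1.73-fold and Phyh, which degrades branched fatty acids, 1.44-fold lower. Mitochondrial import, dynamics and quality control genes had 11 of 28 lower and 3 higher (median -0.13). The fusion proteins Opa1, Mfn1 and Mfn2 fell 1.48-fold, 1.38-fold and 1.35-fold.

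Among enzymes of xenobiotic, steroid and retinoid metabolism 13 of 25 tested genes were lower and 6 higher (median -0.34). Ces1d, a carboxylesterase that also hydrolyses stored fat, held 15.6, 63.8, 24.8, 22.4 and 24.1 CPM in MI libraries, against 154, 168, 159, 196 and 141 CPM in sham libraries. MI replicate 2 was the highest MI library and all 5 were below the sham libraries, 5.78-fold lower (adjusted p = 6.67e-05 by edgeR). The methyltransferase Inmt fell 3.46-fold (0.995 to 3.27 CPM in MI, against 4.48 to 9.31 CPM in sham libraries) and aldehyde oxidase (Aox1) 2.35-fold.

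**Figure D4:**
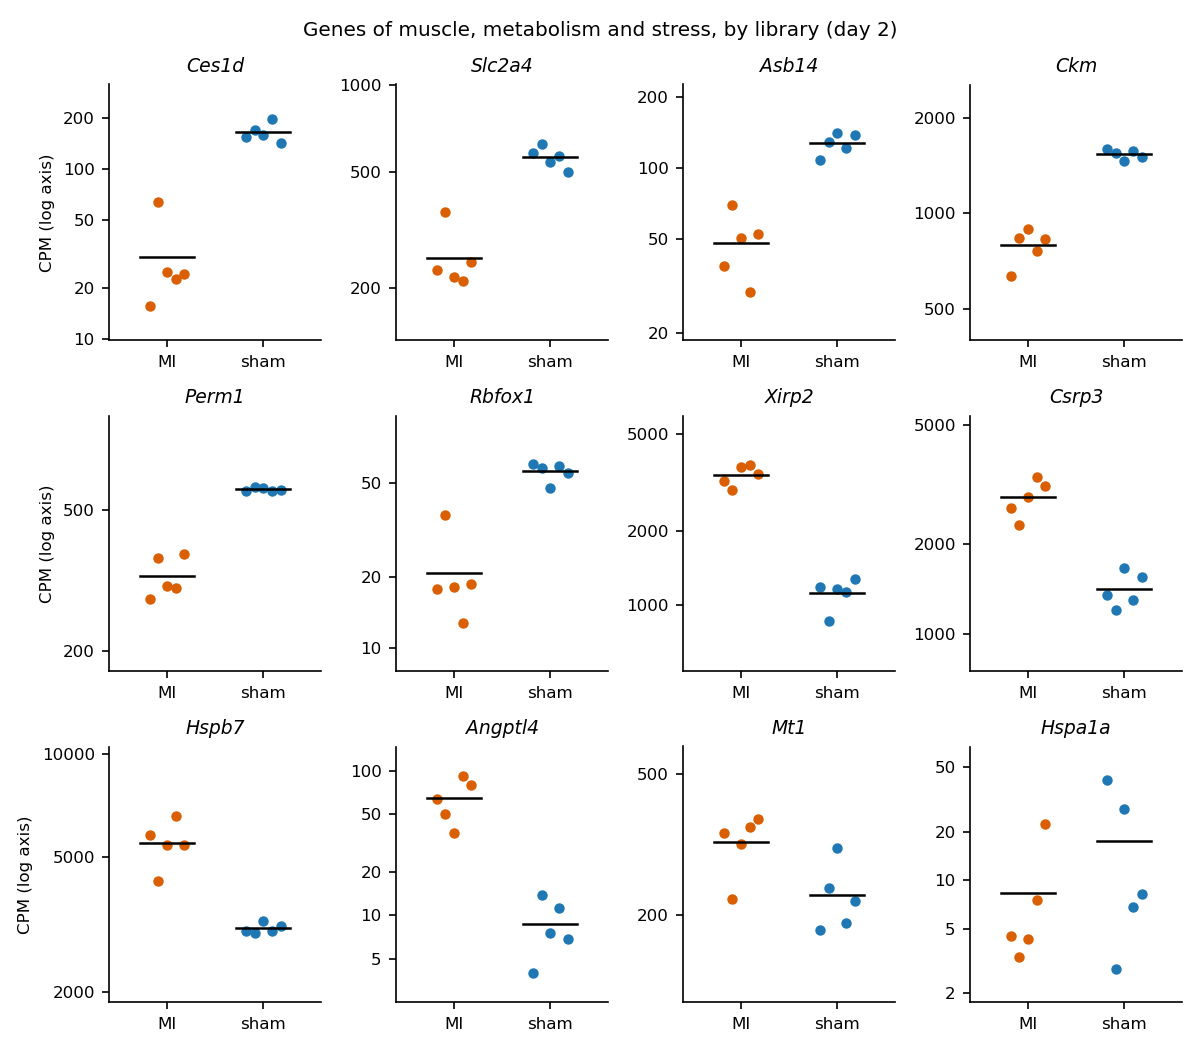
CPM on a log axis in each of the 10 libraries for 12 genes of muscle, metabolism and stress: MI libraries left (orange), sham libraries right (blue), 1 point per library, with a bar at the mean of each group. Ces1d, Slc2a4, Asb14, Ckm, Perm1 and Rbfox1 lie lower in MI, Xirp2, Csrp3, Hspb7 and Angptl4 higher, and the groups overlap for Mt1 and Hspa1a.

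Muscle splicing regulators and other RNA-binding proteins had 6 of 20 genes higher and 4 lower (median 0.13). These shares, 30% and 20%, lay near the 24.1% and 22.2% of all genes tested. Rbfox1, which sets muscle exon choice, held 17.9, 36.7, 18.1, 12.8 and 18.8 CPM in MI libraries, against 60.4, 57.97, 47.7, 59.2 and 55.2 CPM in sham libraries. MI replicate 2 lay highest among the MI libraries and below all sham libraries, and Rbfox1 was 2.87-fold lower (adjusted p = 6.14e-05 by edgeR). Rbm38 fell 1.68-fold and Rbm20, the regulator of titin splicing, 1.402-fold. Ptbp1, which represses muscle exons, rose 1.55-fold, and Rbm24 had a log2 fold change of -0.16 ± 0.09 SE (adjusted p = 0.152 by edgeR). Rbm24 passed the test without MI replicate 4 (lowest edgeR adjusted p = 0.0301).

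Long noncoding RNAs and hosts of small nucleolar RNAs had 9 of 14 tested genes higher and 1 lower (median 0.64). The host gene Snhg6 rose 2.79-fold, Gas5 1.798-fold and the imprinted H19 1.45-fold, while Neat1 and Malat1 had log2 fold changes of 0.29 ± 0.23 SE and -0.07 ± 0.22 SE (adjusted p = 0.328 and 0.817 by edgeR). Mhrt, the antisense RNA of the myosin gene Myh7, held 8.44, 10.4, 9.44, 5.899 and 5.68 CPM in MI libraries, against 38.9, 17.6, 26.05, 23.9 and 28.5 CPM in sham libraries, 3.63-fold lower without overlap. The strand setting of the counting is not given in the sources used here, and without strand the reads of Mhrt and of Myh7 (745 CPM in MI, against 607 CPM in sham libraries) cannot be told apart.

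Of 18 tested antigen presentation genes 4 were higher and 1 lower, a higher share close to the 24.1% of all genes tested (median 0.10). Cd74, H2-Aa and B2m had log2 fold changes of -0.06 ± 0.17 SE, 0.07 ± 0.16 SE and 0.17 ± 0.12 SE (adjusted p = 0.796, 0.743 and 0.266 by edgeR). The costimulatory receptor Cd40 rose 2.697-fold. Of 23 lymphocyte and dendritic cell genes only 4 were high enough to be tested, too few to describe the list. The filter lets in a gene that is high enough in 1 group, so members that are low in sham libraries could be tested only when high in MI. Of 7 tested genes of mast cells, basophils and eosinophils 3 were higher and 0 lower (median 0.20). The lower count of these 7 was also 0 at an unadjusted p under 0.05 in edgeR, in DESeq2 and in limma voom. Since low members could enter the test through the MI group alone, this count of 0 carries no weight. The eosinophil receptor Siglecf rose, with sham libraries near the detection limit (2.06 to 6.28 CPM in MI, against 0 to 0.441 CPM in sham libraries; log2 fold change 3.90 ± 0.46 SE) and the stem cell factor receptor Kit rose 3.61-fold, while the mast cell protease Cpa3 had a log2 fold change of -0.15 ± 0.30 SE (adjusted p = 0.697 by edgeR).

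Scavenger and lipoprotein receptors had 5 of 16 tested genes higher and 0 lower (median 0.27). At an unadjusted p under 0.05 edgeR gave 1 lower, and with adjusted p DESeq2 gave 2 and limma voom 0. The macrophage scavenger receptor Msr1 held 38.4 to 66.7 CPM in MI, against 10.8 to 17.6 CPM in sham libraries, 3.74-fold higher, and the apolipoprotein E receptor Lrp8 rose 3.77-fold. Mertk, the receptor for dying cells, averaged 15.7 ± 0.690 CPM in MI, against 12.5 ± 1.75 CPM in sham libraries (SD, n = 5; log2 fold change 0.24, edgeR adjusted p = 0.0755), and the fatty acid receptor Cd36 had a log2 fold change of -0.09 ± 0.13 SE (adjusted p = 0.618 by edgeR). Among axon guidance, neurotrophin and Ephrin genes 2 of 22 tested were higher and 6 lower (median -0.25). The ephrin receptor Epha4 fell 2.56-fold (23.3 to 41.002 CPM in MI, against 53.7 to 85.6 CPM in sham libraries), Gfra1, a receptor of the GDNF family, 2.36-fold, and the guidance cue Sema3f rose 2.38-fold. Mertk passed the test without sham replicate 2 (lowest edgeR adjusted p = 0.0429).

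The directional library kit keeps the strand, but whether the counting used it is not given. Among the genes named above, 15 share exons with a gene on the other strand whose level is at least 10% of their own: Bak1, Cebpd, Cp, Dusp1, Fabp3, Fosl1, Has2, Hspb2, Map1lc3b, Mhrt, Nhp2, Nrg1, Paics, Stat3 and Vcl. Their values may hold reads of that partner. Bcl2a1b, Eef1a1, Ftl1, Hspa1a, H2-Aa and Actb belong to families or have pseudogenes of near-identical sequence, and their counts depend on how the authors assigned shared reads.

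Of the genes named above, the following stand outside the rule by which genes were taken and were chosen after their values were seen: Alad, Asb2, Bag3, Bak1, Bax, Bcl2l1, Chac1, Ckmt2, Cp, Ctf1, Ctps, Dhodh, Eef1a1, Egr1, Ezr, F2rl1, F7, Fblim1, Flnc, Foxo3, Ftl1, Gas5, Hpgd, Hspa1b, Hspb2, Hspb8, Ier3, Il6st, Itgb6, Lifr, Ltbp2, Ltbp4, Mdm2, Mlkl, Msn, Nqo1, Nupr1, Pkp2, Plat, Plau, Plin2, Polr1a, Procr, Ptgds, Pycard, Slc3a2, Sod2, Tfpi, Tgfb2, Tgfb3, Trib3, Trim72, Txnrd1, Vcam1, Vcl, Vim, Vldlr and Wnt5a.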

How the data were processed

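RNA from mouse hearts was measured in 30 libraries, of which the 10 of day 2 were compared. Values are whole-number counts for each Ensembl gene as the authors deposited them. The submitters' processing notes name bcl2fastq 2.20.0, featureCounts and the build GRCm38. For the aligner, the featureCounts version and strand counting, nothing is given in the sources used here. Every one of the 37 mitochondrially encoded genes was listed with 0 counts and could not be analysed. Depth was 9426599 to 14070017 counts a library.

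Libraries were grouped by their labels, without pairing. The 10 libraries were fitted with edgeR 4.0.16 in R 4.3.3 (filterByExpr with a minimum count of 10 and total of 15, TMM, robust quasi-likelihood, 2-sided), and p-values were adjusted by Benjamini-Hochberg over all genes tested. CPM are relative to the plain library total, and an SD is over the 5 libraries of a group. Symbols and positions came from GENCODE M21, promoters from RefSeq on GRCm38.p6.

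The members and the 58 gene lists were chosen with earlier results of these data known. Genes were taken by a rule: the anchor genes of each list, up to 3 called members a list with the largest change and a mean of at least 1 CPM, and the 10 largest changes each way with a mean of at least 10 CPM and no overlap of the groups. Some of these are not reported here, and genes outside the rule are listed at the end of the results. Alternatives were median-ratio factors, library totals alone, DESeq2 1.42.0, limma 3.58.1 voom with sample weights, other filters, all 30 libraries in 1 fit, the replicate number as a block, a test against a fold change of 1.5, and each library left out in turn. Figures were drawn with matplotlib 3.10.9 in Python 3.11.15.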

Additional observations from a re-analysis of the deposited data

Results flagged for a closer look

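In 31 of 596 groups of 5 CPM values, over the 298 genes named, the highest or lowest library stood apart from the other 4 by more than Dixon's 95% critical value of 0.71. Chance flags about 1 group in 20, and 31 of 596 is close to that rate. In MI replicate 1, Nfkbia stood at 69.03 CPM (52.8 to 56.4 CPM in the others). In MI replicate 2, Adrb1 stood at 35.2 CPM (27.5 to 29.7 CPM in the others) and Ces1d at 63.8 CPM (15.6 to 24.8 CPM in the others). For MI replicate 2, Dgat2 stood at 354 CPM (305 to 319 CPM in the others) and Gla at 13.7 CPM (7.21 to 8.39 CPM in the others). Again in MI replicate 2, Itgb6 stood at 20.7 CPM (3.61 to 8.02 CPM in the others) and Lcn2 at 96.7 CPM (167 to 175 CPM in the others). Likewise in MI replicate 2, Lrrc15 stood at 24.5 CPM (5.97 to 9.16 CPM in the others) and Mylk4 at 99.6 CPM (35.01 to 49.6 CPM in the others). Also in MI replicate 2, Rbfox1 stood at 36.7 CPM (12.8 to 18.8 CPM in the others) and Slc2a4 at 365 CPM (210.1 to 246 CPM in the others). Further, in MI replicate 2, Smad7 stood at 20.4 CPM (29.9 to 32.7 CPM in the others). In MI replicate 4, Asb2 stood at 415 CPM (325 to 348 CPM in the others) and Dmd at 255 CPM (121 to 157 CPM in the others). For MI replicate 4, Fzd1 stood at 26.4 CPM (20.7 to 21.5 CPM in the others) and Gata4 at 227 CPM (149 to 159.9 CPM in the others). In MI replicate 5, Atf3 stood at 72.5 CPM (28.3 to 38.8 CPM in the others) and Hspa1a at 22.2 CPM (3.35 to 7.53 CPM in the others). For MI replicate 5, Hspa1b stood at 26.8 CPM (5.38 to 6.47 CPM in the others). In sham replicate 1, Lamb3 stood at 18.7 CPM (21.6 to 22.8 CPM in the others) and Ltbp2 at 9.59 CPM (3.502 to 4.95 CPM in the others). For sham replicate 1, Tlr4 stood at 43.7 CPM (23.9 to 28.9 CPM in the others) and Tnfrsf12a at 133 CPM (50.1 to 66.5 CPM in the others). Again in sham replicate 1, Xirp1 stood at 457 CPM (216 to 257 CPM in the others). In sham replicate 2, Msr1 stood at 17.6 CPM (10.8 to 12.7 CPM in the others) and Optn at 128 CPM (111 to 113 CPM in the others). For sham replicate 2, Selp stood at 6.16 CPM (2.38 to 2.94 CPM in the others) and Serpina3n at 269.8 CPM (85.1 to 136 CPM in the others). In sham replicate 3, Has1 stood at 2.14 CPM (0.881 to 1.24 CPM in the others). In sham replicate 5, Ier3 stood at 38.4 CPM (49.3 to 52.9 CPM in the others) and Nop58 at 21.2 CPM (28.6 to 30.5 CPM in the others). 

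MI replicate 2 held 11 of these values, more than any other library. For Adrb1, Ces1d, Dgat2, Itgb6, Lcn2, Lrrc15, Mylk4, Rbfox1, Slc2a4 and Smad7 it was the MI library closest to the sham mean. Sham replicate 1 held 5, and for Lamb3, Ltbp2, Tlr4, Tnfrsf12a and Xirp1 it was the sham library closest to the MI mean. No cause of these values was tested.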

How the results depend on the processing

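Over all genes, 3498 were higher and 3225 lower in MI. The counts were 3462 and 3299 with median-ratio factors, 3599 and 3367 with DESeq2, 3819 and 3615 with limma voom, 3592 and 3076 without a filter, 3489 and 3232 at a mean of at least 1 CPM and 3284 and 3309 with all 30 libraries in the fit. With library totals alone they were 4375 and 2348, so that 65.1% of the called genes were higher, against 52.0% with TMM factors, and the median log2 fold change of all genes moved to 0.09. Leaving out each library in turn gave 3004 to 3502 higher and 2851 to 3233 lower genes, and 850 to 991 higher and 325 to 448 lower ones at 2-fold or more.

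Against a fold change of 1.5, 849 genes were higher and 359 lower, fewer by construction since small changes no longer pass. In that test, 15 of the actin cytoskeleton genes were higher (25 to 26 with a library left out and a test for no change), 9 of the cell death genes (15 to 16), 7 of the innate receptors (11 to 14), 5 of the annexins and S100 proteins (13 to 14) and 2 of the ribosome biogenesis factors (15 to 17). Lower were 4 of the xenobiotic enzymes (11 to 14), 3 of the muscle ligases (11 to 12), 1 of the insulin and IGF genes (11 to 12) and 1 of the nuclear receptors (11 to 13).

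Same-numbered libraries correlated at -0.02, 0.18, 0.04, 0.16 and 0.09 in their deviations from the group means, and in 2 of 5 cases a library correlated best with its own number, so the numbers were not taken to pair the libraries. With the replicate number as a block 3632 genes were higher and 3339 lower.

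Of 249 named genes called, 239 kept the call under every alternative that tests for no change and 10 lost it under at least 1. H19 and Hp lost it only with all 30 libraries in the fit (adjusted p = 0.143 and 0.137). Of 49 not called, 16 passed under at least 1 alternative. No called value changed sign under any alternative run. Depth limits genes near 0.318 CPM, the limit that 3 counts allow in the smallest library.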

Other observations

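Among the 10 largest falls over all genes, taken where the mean reached 10 CPM and the groups did not overlap, were 8 genes that stand in no list above. The myosin light chain kinase family member Mylk4 fell most among these 8, 5.204-fold (35.01 to 99.6 CPM in MI, against 241 to 322 CPM in sham libraries). Plxnb1, a receptor for semaphorins, held 13.2, 17.5, 14.4, 9.38 and 11.9 CPM in MI libraries, against 62.5, 62.3, 44.4, 52.1 and 47.1 CPM in sham libraries. All MI libraries of Plxnb1 lay far below the sham libraries, 4.32-fold lower (adjusted p = 8.77e-08 by edgeR). Scn4b, a beta subunit of the voltage-gated sodium channel, averaged 12.2 ± 4.58 CPM in MI, against 45.7 ± 3.96 CPM in sham libraries (SD, n = 5), 3.98-fold lower.

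Lrtm1, a leucine-rich repeat membrane protein, held 116 to 295 CPM in MI, against 601 to 772 CPM in sham libraries and fell 3.33-fold. Lrrc15, a surface protein known from activated fibroblasts, held 9.16, 24.5, 8.06, 5.97 and 7.92 CPM in MI libraries, against 41.1, 37.3, 40.7, 44.8 and 48.9 CPM in sham libraries. It was 4.07-fold lower (adjusted p = 0.000259 by edgeR), without overlap of the groups. The transcription factor Cux2 fell 3.34-fold (3.84 to 9.198 CPM in MI, against 17.1 to 20.5 CPM in sham libraries), the armadillo repeat gene Armc2 4.65-fold (5.402 to 33.5 CPM in MI, against 56.7 to 82.01 CPM in sham libraries) and Lingo3, of the LINGO family of membrane proteins, 3.42-fold (5.04 to 10.8 CPM in MI, against 18.2 to 24.5 CPM in sham libraries). The heart muscle markers were lower in the same libraries, as given above, and their part in these falls was not tested.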
